A study of Bos taurus with 60 samples.

Results

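SLC7A5, SLC7A8, IVD and DBT were followed in bovine mammary tissue as representatives of amino acid uptake and of the breakdown of branched-chain amino acids. They were taken by their locus identifiers in the deposited counts, XLOC_008367 (SLC7A5, ENSBTAG00000006731), XLOC_001134 (SLC7A8, ENSBTAG00000007415), XLOC_001252 (IVD, ENSBTAG00000004409) and XLOC_017101 (DBT, ENSBTAG00000006320), and are 4 of 25223 loci. Each of the 4 loci holds 1 gene, and all 4 passed the filter on low counts. Biopsies came from 12 multiparous Holstein cows, each sampled once before dry-off, the day on which milking stopped, at D-3, and 4 times after it, at D3, D7, D14 and then D25, which gives 5 time points and 60 libraries. From dry-off on, 6 cows had shade with fans and soakers (cooled, CL) and 6 had shade alone (heat-stressed, HT), so the D-3 biopsies of both groups precede the treatments. All 12 cows were in late gestation throughout, and their ages are not given in the sources used here. Each cow was sampled at all 5 time points, a pairing that the within-cow tests use and the main fit over all libraries leaves out. No undried cows are among the samples analysed here, so time since dry-off and advancing gestation cannot be told apart.

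SLC7A5 (LAT1) and SLC7A8 (LAT2) are the light chains of the system L transporters, which exchange large neutral amino acids such as leucine, isoleucine and valine across the plasma membrane without sodium. Each reaches the membrane bound to a shared heavy chain, SLC3A2. Inside the mitochondrion the branched-chain ketoacid dehydrogenase complex commits the carbon skeletons of these amino acids to oxidation, and DBT forms the core of that complex. IVD, isovaleryl-CoA dehydrogenase, then acts on the leucine arm alone. The lactating gland draws heavily on the essential amino acids of the blood for milk protein, and milking cows lose that demand at dry-off.

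Total counts ranged from 20525083 to 26183990 per library, with 295 to 8241 counts for SLC7A5, 96 to 13343 for SLC7A8, 1370 to 3739 for IVD and 417 to 1288 for DBT. Levels are given as CPM, counts scaled to a common library size after TMM, which corrects for a few genes that take a large share of a library. At D-3 the 3 milk protein genes that could be paired with a symbol, CSN1S1, CSN2 and LALBA, took 40.2 to 49.8% of all counts in 5 cows (8564, 7965, 8541, 8647 and 8713) and 0.1905 to 8.03% in the other 7. The TMM factors of the D-3 libraries were 0.300 to 0.419 in these 5 cows and 1.02 to 1.21 in the other 7. A low factor raises the CPM of every gene in the library. How many of all loci separated the 5 cows from the other 7 was not counted. The D14 library of CL cow 7965 stood apart, with KRT19, a luminal keratin, at 3.36 CPM against 231 to 1643 CPM in the other 11 cows, and DCN, a fibroblast gene, at 5396 CPM against 561 to 1559 CPM. In a pair of HT cows, 8513 and 8660, the late libraries resembled the early libraries of the other animal. Deviations from the group mean at D14 and D25 in cow 8513 had a mean correlation of 0.51 with those of cow 8660 at the earlier days and of -0.10 with its own. All results include these libraries unless stated, and only some are also given without them. No D14 value relative to KRT19 is given without the library of cow 7965. Because the samples are pieces of tissue, fewer cells of a type and less RNA per cell cannot be told apart in any level below.

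SLC7A5 was lower after dry-off than before it in the fit of all libraries. Its CPM ran from 26.3 through a median of 67.9 to 909 at D-3, from 19.4 through 45.04 to 112 at D3, from 19.8 through 50.2 to 135 at D7, from 14.2 through 39.5 to 62.6 at D14 and from 26.9 through 42.9 to 63.1 at D25. The upper end of the range came down by far more than the median, and the lower ends overlapped at all 5 time points. In edgeR's quasi-likelihood F-test over all 60 libraries, D3 vs. D-3 gave a log2 fold change of -2.54 ± 0.43 (SE) with an FDR of 4.87e-05. At this contrast 4 of the 4 genes were DEGs at an FDR of at most 0.05. The share of DEGs was 15.1% among the 14714 loci tested and 55.4% among the 3007 tested loci with a symbol. Because the 4 genes were chosen with earlier results of these data known, their count is a description only. With D-3 as the shared reference the log2 fold change of SLC7A5 was -2.45 (FDR = 0.000249) on D7, -2.92 (FDR = 8.89e-06) on D14 and -2.74 (FDR = 1.77e-05) on D25, where 8.46%, 19.5% and 13.1% of loci were DEGs. At D7 the call was lost with libraries scaled by size alone (-1.10, FDR = 0.0590) and in a fit of only the D-3 and D7 libraries (-2.44, FDR = 0.0829). Between D7, D14 and D25 none of the 4 genes was called, where 0 to 0.0612% of loci were DEGs, and SLC7A5 was not called against D3 on any later day, with a D7 vs. D3 value of 0.10 ± 0.41 (edgeR FDR = 0.956). Without the D14 library of cow 7965, which held the lowest SLC7A5 level of all, D14 vs. D-3 was -2.84 (edgeR FDR = 3.06e-05).

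The fall of SLC7A5 was not shared by all cows. In the 5 cows with the high milk protein share, SLC7A5 stood at 379 to 909 CPM at D-3 and at 19.4 to 58.6 CPM at D3, a change within the cow of -2.88, -3.77, -3.95, -4.24 and -5.10 on the log2 scale. The other 7 cows held 26.3 to 85.9 CPM at D-3 and 29.3 to 112 CPM at D3, and SLC7A5 was higher at D3 than at D-3 in 6 of them. Over all 12 cows the mean change was -1.43 ± 2.37 (SD), with a median of -0.40. The two-sided exact sign-flip test over the 12 within-cow differences gave p = 0.0625, and 0.111 after adjustment over the 10 pairs of time points. The edgeR fold change compares mean counts, to which the 5 cows contribute most, whereas the sign-flip test weighs each cow alike. The lowest sign-flip p among the pairs was 0.0381 for D14 vs. D-3 (mean -1.75, lower in 7 of 12 cows), which also did not pass after adjustment (0.111). Relative to KRT19 the within-cow change from D-3 was -1.76 at D3, then -0.85 on D7, -0.62 on D14 and -0.83 on D25 (exact sign-flip p = 0.0586, 0.144, 0.317 and 0.139). That D14 mean includes the library of cow 7965, with KRT19 at 3.36 CPM, and the median D14 change was -0.44.

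**Figure D1:**
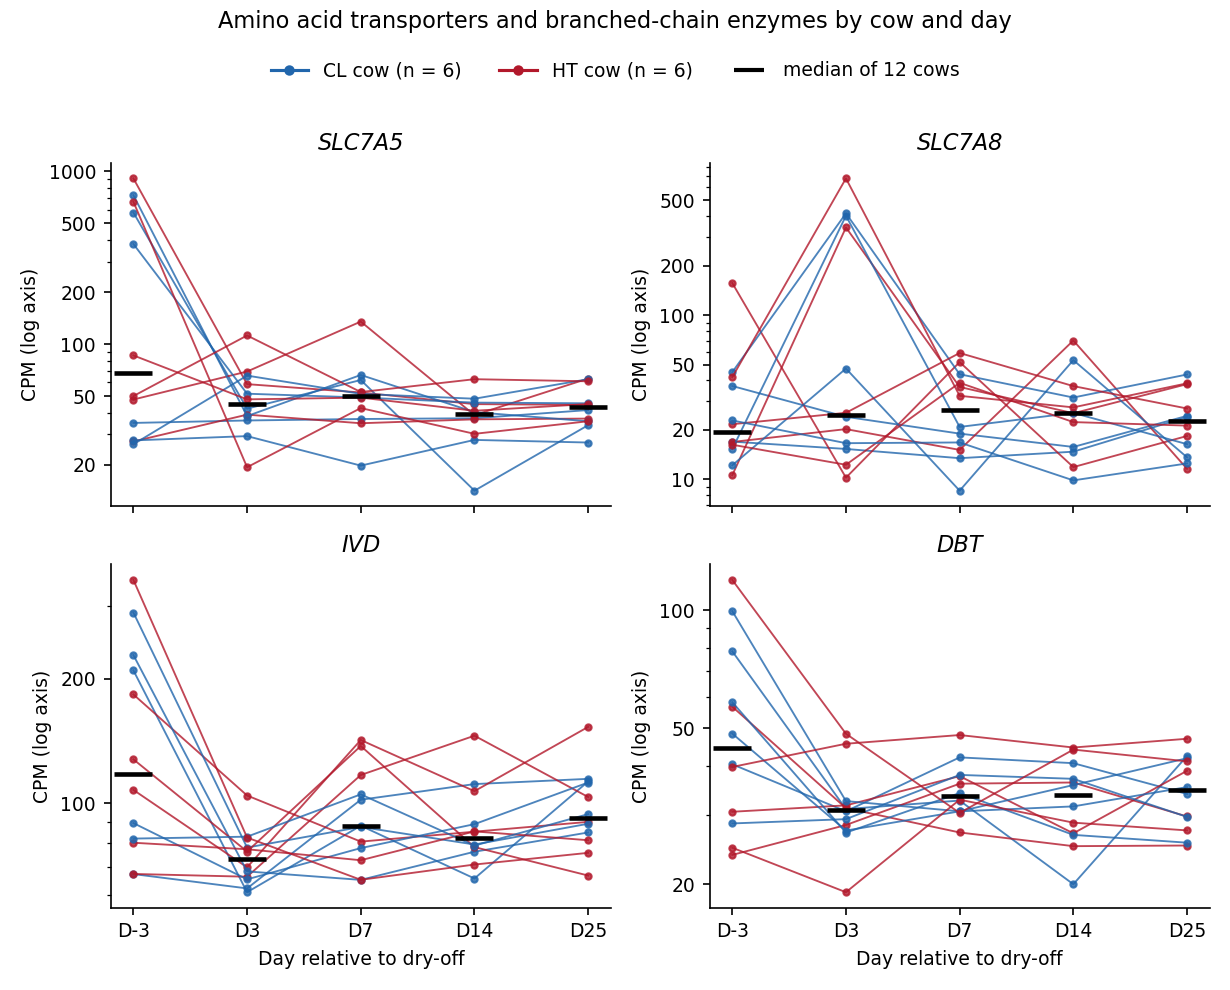
CPM of SLC7A5, SLC7A8, IVD and DBT (log axis) at each day relative to dry-off, with 1 line per cow (CL blue, HT red) and a black bar at the median of the 12 cows. SLC7A5 drops from up to 909 CPM in 5 cows between D-3 and D3, SLC7A8 peaks at 342 to 681 CPM in 4 cows at D3 alone, and IVD and DBT narrow to 60.9 to 104 and 19.1 to 48.5 CPM at D3. Both enzymes lie below D-3 at D7, D14 and D25 under TMM in the fit of all 60 libraries, and are not called in fits of only the libraries of both days. When libraries are scaled by size alone they lie slightly above D-3, but below it relative to the median of all loci under that scaling.

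SLC7A8 was higher at D3 than at D-3 and D7 in the fit of all libraries. Its CPM ran from 10.6 through a median of 19.3 to 157 at D-3, from 10.2 through 24.7 to 681 at D3, from 8.52 through 26.6 to 58.8 at D7, from 9.85 through 25.3 to 70.1 at D14 and from 11.6 through 22.6 to 43.5 at D25. The medians stayed close to each other and the groups overlapped at all time points, while the maximum at D3 stood far above the rest. D3 vs. D-3 gave a log2 fold change of 2.28 ± 0.54 (edgeR FDR = 0.00242) and D7 vs. D3 one of -2.50 ± 0.55 (edgeR FDR = 0.00838). With a fit of only the 24 libraries of D-3 and D3 the rise was 2.29 and did not pass (edgeR FDR = 0.0589). SLC7A8 was the only one of the 4 genes called between D3 and D7, where 2.92% of loci were DEGs (430 loci, and 881 or 5.99% when the cow was a block). SLC7A8 also stayed below its D3 level at D14 (-2.55, FDR = 0.00532, with 3.43% of loci called) and D25 (-2.80, FDR = 0.000941, with 6.02% of loci called). Against D-3 the differences were -0.22, -0.27 and -0.52 at the following time points from D7 on (edgeR FDR = 0.832, 0.759 and 0.546). The contrasts that share the D3 libraries share that peak.

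The D3 peak of SLC7A8 was made by 4 cows. It stood at 417 CPM in 8564 and 403 CPM in 8647, both CL, and at 342 CPM in 8541 and 681 CPM in 8713, both HT. The other 8 cows held 10.2 to 47.3 CPM. Within these 4 cows the rise from D-3 was 3.21, 4.71, 5.00 and 4.02 on the log2 scale, and by D7 the level had come down to 43.7, 20.8, 36.5 and 32.3 CPM. The opposite extreme was HT cow 8513, in which SLC7A8 went from 157 CPM at D-3, the highest of that day, to 10.2 CPM at D3. Over the 12 cows the mean change was 1.15 ± 2.66 (SD), upwards in 7, and the exact sign-flip test gave p = 0.165 (0.413 adjusted). Without cows 8513 and 8660 the mean was 1.82 with p = 0.0488 in the exact sign-flip test, and edgeR gave 3.08 (FDR = 0.000139). Without cow 8713, the highest at D3, the change from D3 to D7 was -2.02 and that from D3 to D14 was -2.05, and neither passed (edgeR FDR = 0.0517 for each). The change from D3 to D14 also did not pass in a fit of only the libraries of both days (edgeR FDR = 0.0635). Within cows the change from D3 to D7 was -1.11 ± 2.33 (SD), downwards in 8 of 12 (exact sign-flip p = 0.127, 0.413 adjusted).

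Some other genes stood apart in the D3 libraries of the 4 cows. KRT19 was at 1409 to 3229 CPM there and at 458 to 1313 CPM in the other 8. The milk protein share was 3.66 to 7.45% against at most 1.01%, and MYH2, a myosin of skeletal muscle, was at 9.23 to 16.7 CPM against 0.451 to 8.14 CPM. CLDN4, the other luminal gene with a symbol, overlapped at 119 to 508 CPM against 55.3 to 237 CPM. The basal genes KRT5, ACTA2 and MYLK also overlapped, as did ADIPOQ, DCN and KDR. How many of all loci separated the 4 cows was not counted. The part of these genes in the SLC7A8 peak was not tested by a comparison of the cows, which were picked out by the measured level. When SLC7A8 was expressed relative to KRT19, its change from D-3 to D3 over the 12 cows was 0.82 (exact sign-flip p = 0.217), upwards in 7, and that from D3 to D7 was -0.30 (exact sign-flip p = 0.575), downwards in 6.

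**Figure D2:**
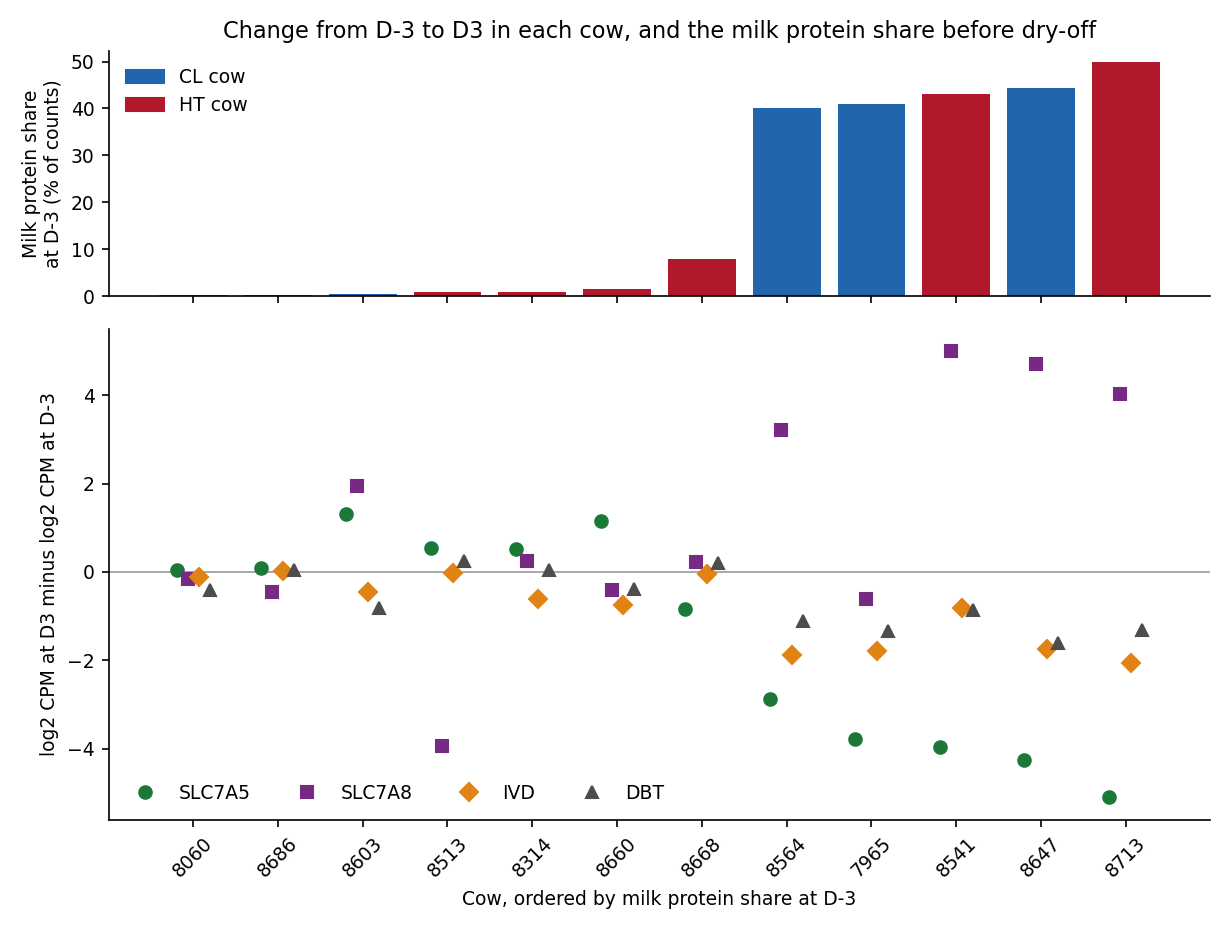
Upper panel, share of counts on CSN1S1, CSN2 and LALBA at D-3 (%), 1 bar per cow, with cows ordered by that share; lower panel, log2 CPM at D3 minus log2 CPM at D-3 for the 4 genes in the same cows. The 5 cows at 40.2 to 49.8% show SLC7A5 lower by 2.88 to 5.10, and in 4 of them SLC7A8 is higher by 3.21 to 5.00, whereas cow 7965 shows -0.62 for SLC7A8.

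The opposite course of the 2 transporters was seen in some of the animals. From D-3 to D3, SLC7A5 went down while SLC7A8 went up in 5 of 12 cows, namely the 4 cows above and, by small amounts, 8668. In 4 cows the directions were the other way round, in 2 both genes were higher at D3 (8603 and 8314) and in 1 both were lower (7965). The ratio of SLC7A5 to SLC7A8 counts within a library needs no scaling between libraries, and since the lengths of the transcripts were not used, only its change is read. Its median was 3.51 at D-3 and 1.76 at D3, then 1.87 on D7, 1.52 on D14 and 1.94 on D25, and it ran from 0.304 to 84.1 at D-3 and from 0.0285 to 9.09 at D3. SLC7A5 had more counts than SLC7A8 in 11 of 12 libraries at D-3 and in 8 of 12 at D3. The mean log2 change of the ratio from D-3 to D3 was -2.58 ± 4.62 (SD), downwards in 7 cows, with p = 0.0864 in the exact sign-flip test (0.226 after adjustment over the 10 pairs). Leaving out cow 8513, whose ratio rose from 0.304 to 6.73, made it -3.22 (exact p = 0.0410), and without 8513 and 8660 it was -3.69 (exact p = 0.0215). At D14 the ratio was lower than at D-3 in 9 cows, by a mean of -1.74 (exact p = 0.0459, 0.226 adjusted).

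**Figure D3:**
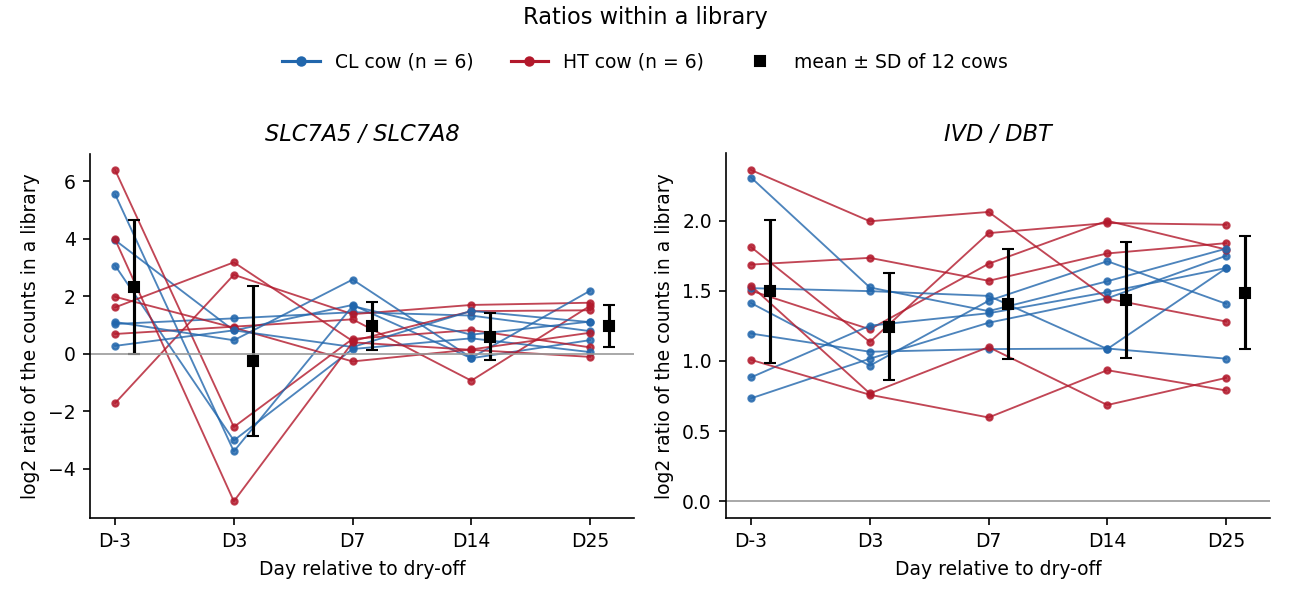
Log2 of the ratio of SLC7A5 to SLC7A8 counts (left) and of IVD to DBT counts (right) within each library, by day relative to dry-off, 1 line per cow, with black squares and bars for the mean ± SD of the 12 cows. The transporter ratio spreads most at D-3 and D3, where 4 cows fall below 0 together, and lies between -0.93 and 2.58 from D7 on. The ratio of the enzymes stays above 0 in all 60 libraries.

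Among the 7 cows with a low milk protein share at D-3, SLC7A5 followed that share with r = 0.81 (permutation p = 0.0288, 0.115 adjusted over the 4 genes) and rho = 0.57 (permutation p = 0.2), and r was 0.70 without the 2 cows farthest from the median share. The relation did not pass after adjustment. For SLC7A8, IVD and DBT r was 0.05, 0.28 and -0.03 (permutation p = 0.882, 0.557 and 0.956). No r over all 12 cows is given because the cows fell into separate clusters.

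SLC3A2, the heavy chain that both transporters need, was highest at D3 and fell by D7. Its CPM ran from 84.6 through a median of 164 to 324 at D-3, from 131 through 211 to 383 at D3 and from 95.6 through 144 to 227 at D7. D3 vs. D-3 gave 0.45 ± 0.19 (edgeR FDR = 0.0897) and D7 vs. D3 -0.75 ± 0.19 (edgeR FDR = 0.0182), so that only the fall was called. At D3 it stood at 305 to 383 CPM in the 4 cows with the SLC7A8 peak and at 131 to 301 CPM in the others. The 4 cows were picked out by their SLC7A8 level, and how many of all loci separated them was not counted. A link between SLC3A2 and the SLC7A8 peak was not tested. No other system L gene of the list could be paired with a locus, which left 3 of the 11 listed.

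Among the remaining amino acid transporters more fell than rose at D3. Of 14 that carried a symbol, out of 31 listed, 7 fell and 1 rose at D3 vs. D-3, where 9.04% of tested loci were called lower and 6.03% higher, with a median log2 fold change of -0.48 against -0.01 over all loci. Scaling by library size alone left 3 of the 14 called lower. Symbols came from tables of the study's own comparisons, held here in part, and among the 3007 tested loci with a symbol 32.4% were called lower and 23% higher at this contrast, so counts over such lists are set against those shares and support no direction by themselves. SLC1A5 (ASCT2), which carries glutamine and other small neutral amino acids, fell by 2.23 on the log2 scale (edgeR FDR = 4.79e-05), from a range of 12.8 to 489 CPM at D-3 to one of 15.0 to 48.5 CPM at D3. At D-3 it was at 203 to 489 CPM in the 5 cows with the high milk protein share and at 12.8 to 47.1 CPM in the other 7, as SLC7A5 was. Its relative SLC1A4 (-1.29, FDR = 0.000689), the cationic amino acid carrier SLC7A1 (-0.90, FDR = 0.000625) and its family member SLC7A4 (-2.44, FDR = 0.000298) also fell. Among the sodium-coupled SLC38 carriers, SLC38A3 (-3.75, FDR = 0.000617), SLC38A2 (-0.64, FDR = 0.00276) and SLC38A10 (-0.55, FDR = 0.00510) fell, while SLC38A7, a lysosomal glutamine carrier, rose by 0.96 (FDR = 0.00590). None of the 14 was called at D7 vs. D3.

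IVD was lower at D3 than at D-3 in 11 of 12 cows, in some of them by little. Its CPM ran from 67.4 through a median of 118 to 347 at D-3, from 60.9 through 73.2 to 104 at D3, from 65.2 through 87.9 to 142 at D7, from 65.8 through 82.4 to 146 at D14 and from 66.8 through 92.1 to 153 at D25. The ranges overlapped, and D3 had the lowest median and the narrowest range. D3 vs. D-3 gave a log2 fold change of -1.07 ± 0.19 (edgeR FDR = 0.000121), which was -0.31 (FDR = 0.0957) with libraries scaled by size alone, or -0.66 relative to the median of all loci, shifted by 0.35 under that scaling. Within cows the change was -0.86 ± 0.80 (SD), downwards in 11 of 12, and it was the one change of the 4 genes to pass the exact sign-flip test after adjustment (p = 0.000977, 0.00977 adjusted). The 5 cows with the high milk protein share held 183 to 347 CPM at D-3 and the other 7 held 67.4 to 128 CPM, and at D3 both lay between 60.9 and 104 CPM. Raw IVD counts at D-3 overlapped, at 1663 to 2874 in the 5 cows and 1648 to 3060 in the other 7. The within-cow change ran from -0.81 to -2.07 in those 5 and from 0.02 to -0.74 in the other 7. Relative to KRT19 the mean change over all 12 cows was -1.19 (exact p = 0.00781), downwards in 9 cows.

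The rise of IVD after D3 passed under some scalings only. It was higher at D25 than at D3 in 9 of 12 cows, by a mean of 0.38 ± 0.47 (SD), with an exact sign-flip p of 0.0225 that did not pass after adjustment (0.112), and edgeR gave 0.40 (FDR = 0.209). It passed with libraries scaled by size alone (0.54, edgeR FDR = 0.0279) and relative to KRT19 (1.42, exact sign-flip p = 0.000977, 0.00977 adjusted), while KRT19 itself was lower at D25 than at D3 (-1.24, edgeR FDR = 0.0192). Against D-3 it remained lower by edgeR at D7 (-0.72, FDR = 0.0130), D14 (-0.81, FDR = 0.00262) and D25 (-0.67, FDR = 0.0143). None of these late calls held under every alternative. A fit of only the libraries of both days ended all 3 (edgeR FDR = 0.120, 0.0577 and 0.0913). Relative to KRT19 the within-cow change from D-3 was -0.06 at D7, 0.51 at D14 and 0.23 at D25 (exact sign-flip p = 0.854, 0.522 and 0.331). That D14 mean includes the library of cow 7965, with KRT19 at 3.36 CPM. The D14 changes had a median of -0.32 and a maximum of 6.36, and were downwards in 8 of 12 cows. With libraries scaled by their size alone, IVD was 0.11, 0.05 and 0.23 above D-3 at D7, D14 and D25, none called, while the median of all loci was shifted by 0.41, 0.43 and 0.48, and relative to that shift IVD was at -0.29, -0.38 and -0.25. Without cow 8541, 8564, 8647 or 8713 the D7 call was lost (edgeR FDR from 0.0696 to 0.110), and without 8564, 8647 or 8713 the D25 call was lost (FDR from 0.0663 to 0.0886).

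DBT was lower at D3 than at D-3 under TMM. Its CPM ran from 23.8 through a median of 44.5 to 119.6 at D-3, from 19.1 through 30.9 to 48.5 at D3, from 27.1 through 33.5 to 48.1 at D7, from 20.01 through 33.7 to 44.7 at D14 and from 25.1 through 34.7 to 47.0 at D25. D3 vs. D-3 gave -0.76 ± 0.18 (edgeR FDR = 0.00266), which was -0.05 (FDR = 0.797) with libraries scaled by size alone, or -0.40 relative to the median of all loci under that scaling. Within cows the change was -0.61 ± 0.65 (SD), downwards in 8 of 12 (exact sign-flip p = 0.0117, 0.117 adjusted). The 5 cows with the high milk protein share came from 56.8 to 119.6 CPM at D-3, above all of the other 7 (23.8 to 48.5 CPM), to 27.1 to 48.5 CPM at D3. Raw DBT counts at D-3 were 515 to 879 in the 5 cows and 581 to 1288 in the other 7, so they did not split the cows before TMM scaling.

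After D3 no change of DBT was called by edgeR, with D7, D14 and D25 at 0.14, 0.06 and 0.13 from D3 (FDR = 0.8004, 0.917 and 0.711), while relative to KRT19 it was higher than at D3 by 0.97, 1.51 and 1.17 (exact sign-flip p = 0.0171, 0.0464 and 0.0171 after adjustment). Against D-3 it was lower at D7 (-0.62, FDR = 0.0233), D14 (-0.70, FDR = 0.00512) and D25 (-0.63, FDR = 0.0150) under TMM, and above D-3 by 0.15, 0.10 and 0.21 with libraries scaled by size alone. Under that scaling the median of all loci was shifted by 0.41, 0.43 and 0.48, and relative to that shift DBT was at -0.26, -0.33 and -0.28. A fit of only the libraries of both days ended all 3 calls (edgeR FDR = 0.122, 0.0729 and 0.0884), and relative to KRT19 the within-cow change was 0.03, 0.58 and 0.24 (exact sign-flip p = 0.888, 0.4004 and 0.132). The D14 means relative to KRT19 include the library of cow 7965, with KRT19 at 3.36 CPM. The median D14 change of DBT relative to KRT19 was 0.06 from D-3 and 1.46 from D3, with maxima of 6.06 and 6.95. The D7 call was lost without any of the 5 cows with the high milk protein share (FDR from 0.0740 to 0.157), and the D25 call without 8541, 8647 or 8713 (FDR from 0.0540 to 0.0668). The ratio of IVD to DBT counts, free of scaling, had a median of 2.85 at D-3 and 2.27 at D3, then 2.63 on D7, 2.77 on D14 and 3.16 on D25. It fell from D-3 to D3 in 9 of 12 cows by a mean of -0.25 ± 0.38 (SD), with an exact sign-flip p of 0.0469 that did not pass after adjustment over the 10 pairs (0.299) and that rose above 0.05 without any 1 of 8 cows.

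Most of the paired enzymes of branched-chain breakdown were called lower at D3 under TMM. Of 13 genes of the pathway with a symbol, out of 8 listed for the shared steps, 5 for the leucine arm and 14 for the isoleucine and valine arms, 11 fell and 0 rose, where 9.04% of all tested loci and 32.4% of those with a symbol were called lower. Without IVD and DBT the count was 9 of 11, with a median log2 fold change of -0.67. Scaling by library size alone left 1 of the 13 called lower, and a fit of only the 24 libraries of both days left 7. In the shared steps, BCKDHA and BCKDHB, the E1 subunits of the ketoacid dehydrogenase complex, fell, with log2 fold changes of -0.80 (edgeR FDR = 0.00177) and -0.67 (FDR = 0.00511), so that 3 subunits of the complex fell by similar amounts. DLD, the E3 subunit that other dehydrogenase complexes use as well, was at -0.28 (FDR = 0.0789, and 0.00559 when the cow was a block, a fit that called 21.5% of loci). PPM1K, the phosphatase that switches the complex on, fell by 1.11 (FDR = 0.000282).

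Further along, MCCC1, the carboxylase subunit that follows IVD on the leucine arm, fell by 0.80 (edgeR FDR = 0.000457). On the isoleucine and valine arms 5 genes fell, namely HIBADH (-1.53, FDR = 9.9e-05), PCCB, a subunit of propionyl-CoA carboxylase (-0.75, FDR = 0.00829), ECHS1 (-0.57, FDR = 0.00165), MMUT (-0.53, FDR = 0.0167) and HIBCH (-0.36, FDR = 0.0164). ACADSB, the dehydrogenase of the isoleucine arm, was at 0.01 (FDR = 0.985). The pathway had 0 of 13 genes called at D7 vs. D3, with a median of 0.21 against 0.00 over all loci, and PCCB was the one gene of the pathway called at D25 vs. D3 (0.74, FDR = 0.0188). At D25 vs. D-3, 7 of the 13 were lower, where 9.16% of all loci and 20.4% of those with a symbol were called lower. As with IVD and DBT, the D-3 levels split the cows in CPM after TMM, a split that the raw counts of IVD and DBT did not show. The share of all loci with such a split was not counted. BCKDHB was at 18.5 to 47.2 CPM in the 5 cows with the high milk protein share and at 10.1 to 15.2 CPM in the other 7, PPM1K at 72.3 to 136 CPM and 15.3 to 60.2 CPM, while BCKDHA overlapped at 71.1 to 179 CPM and 41.4 to 78.9 CPM.

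**Figure D4:**
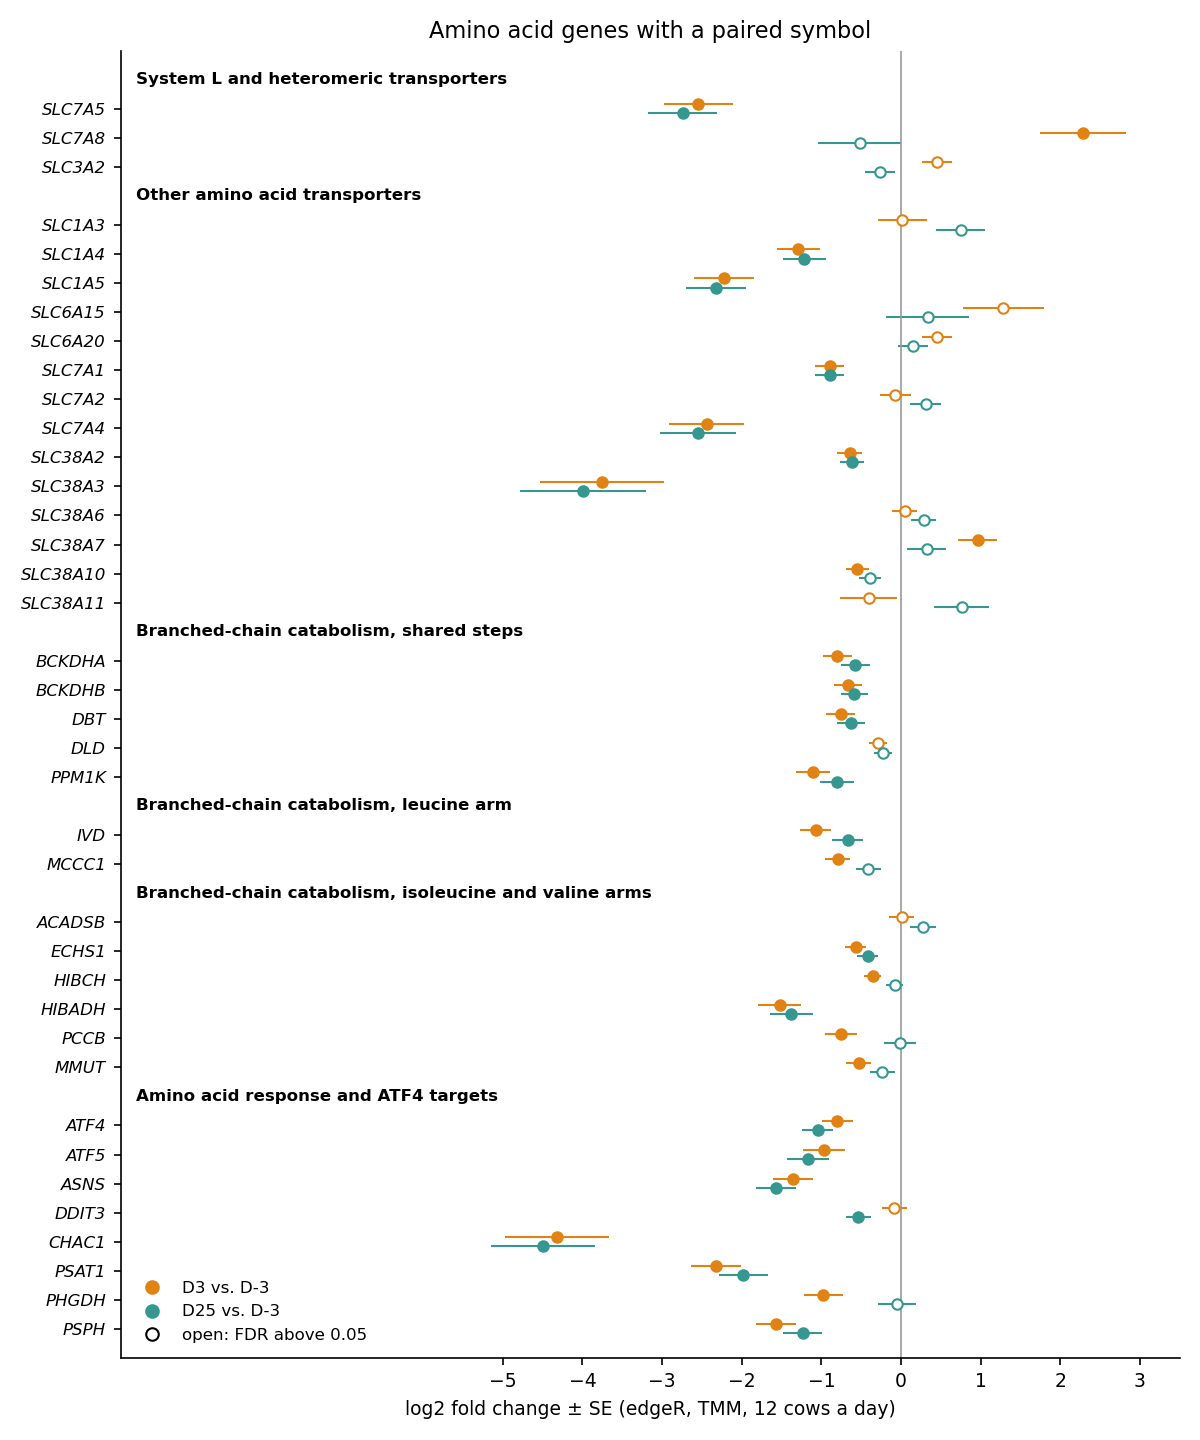
Log2 fold change ± SE (edgeR, TMM scaling) of the listed amino acid genes with a symbol other than the sensing genes, at D3 vs. D-3 (orange) and D25 vs. D-3 (green), filled where the FDR is at most 0.05. SLC7A8 lies to the right of 0 at D3 while SLC7A5 and 11 of 13 branched-chain genes lie to the left, and 7 of the 13 are still filled at D25. For the branched-chain genes the number called lower at D3 is 1 when libraries are scaled by size alone.

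Genes that sense or respond to amino acids were read beside the transporters. The transcription factor ATF4 and the genes it drives when amino acids run short had 7 of 8 members lower and 0 higher at D3 vs. D-3, out of 14 listed, where 9.04% of tested loci and 32.4% of those with a symbol were called lower. The median was -1.17 against -0.01 over all loci. ATF4 (-0.80, edgeR FDR = 0.00331), ATF5 (-0.97, FDR = 0.00843), asparagine synthetase ASNS (-1.36, FDR = 0.000146) and CHAC1, which degrades glutathione (-4.32, FDR = 1.4e-05), were all called lower. The median of ATF4 did not fall, at 229 CPM on D-3 and 238 CPM on D3, while its maximum went from 1074 to 381 CPM. For ATF5 the median went from 14.3 to 12.7 CPM and the maximum from 97.6 to 17.8 CPM. The serine synthesis enzymes PSAT1, PSPH and PHGDH fell as well, with -2.33 (FDR = 1.79e-06), -1.57 (FDR = 2.31e-05) and -0.98 (FDR = 0.00425), and PHGDH then rose by 0.95 from D3 to D7 (FDR = 0.0213). Under scaling by library size alone 4 of the 8 were called lower. At D-3 CHAC1 stood at 9.37 to 48.2 CPM in the 5 cows with the high milk protein share and at 0.156 to 1.504 CPM in the other 7.

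Of 4 sensing and mTORC1 genes with a symbol, out of 18 listed, SESN2, a leucine sensor, rose by 0.57 (edgeR FDR = 0.00537), TSC1, an inhibitor of mTORC1, rose by 0.32 (FDR = 0.0124), and the leucyl-tRNA synthetase LARS1 fell by 0.31 (FDR = 0.0338). EIF4EBP1, the translation repressor that mTORC1 phosphorylates, was at 0.96 at D3 vs. D-3 (FDR = 0.0626) and fell by 1.55 from D3 to D7 (FDR = 0.0136), and TSC1 fell over the same days (-0.32, FDR = 0.0429).

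Markers of other cell types were paired for 13 of 53 listed genes, and none of the listed macrophage, T cell or B cell genes carried a symbol. At D3 vs. D-3 the luminal gene CLDN4 (1.15, edgeR FDR = 0.0201) and the basal genes KRT5 (1.01, FDR = 0.0190) and ACTA2 (0.81, FDR = 0.0351) rose, KRT19 was at 0.52 (FDR = 0.333) and MYLK at 0.42 (FDR = 0.0632). The endothelial gene KDR fell by 0.95 (FDR = 0.00230), from 255 to 371 CPM in the 5 cows with the high milk protein share and 58.9 to 147 CPM in the other 7 at D-3. DCN, ADIPOQ and MYH7 were at 0.12, -0.84 and -0.29 (FDR = 0.795, 0.214 and 0.660), and MYH2 rose by 2.95 (FDR = 0.00913). The summed CPM of KRT19 and CLDN4 ran from 520 to 1333 at D-3 and from 513 to 3738 at D3, that of KRT5, ACTA2 and MYLK from 440.1 to 2035 and from 817 to 2922, and that of MYH2 and MYH7 from 0.264 to 2.59 and from 0.779 to 16.7, with MYH2 at 0 in some D-3 libraries. The log2 fold changes of CSN2 and LALBA were -4.65 and -7.14, and CSN1S1 fell likewise (-3.996). The part of these cell types in the changes of the amino acid genes was not tested.

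The level of SLC7A5 over the 60 libraries was tracked most closely, among loci with a symbol, by ADM2 (Pearson r = 0.92), CHAC1 (0.92), GPAT4 (0.92), SLC7A1 (0.91) and ORAI1 (0.90). For SLC7A8 they were KCTD4 (0.87), ADAM9 (0.85), CTSV (0.84), NPC1 (0.84) and FNDC4 (0.83). For IVD they were LOC100852322 (0.91), COG2 (0.88), SLC35C1 (0.87), DHRS11 (0.87) and the locus of SLC25A23 and SLC25A41 (0.87), and for DBT SLC30A9 (0.89), VPS37A (0.89), CCDC47 (0.88) and RORA (0.87). The 60 libraries share cows and the scaling, so these values are descriptions. Between the 4 genes themselves r was -0.03 for SLC7A5 and SLC7A8, 0.68 for SLC7A5 and IVD, 0.59 for SLC7A5 and DBT, and 0.67 for IVD and DBT. SLC7A8 had r of -0.09 with IVD and -0.02 with DBT. No gene is shared between the lists of SLC7A5 and SLC7A8. Lists of 5 among 3006 loci with a symbol would seldom share a gene, so nothing is read from this.

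The comparison of HT with CL asked whether cooling in the dry period changed these genes. None of the 4 genes was a DEG at any time point by edgeR, where 0% of loci were called, and 1 of the 20 tests had an unadjusted p under 0.05. DESeq2 also called 0 with 1 unadjusted. At D-3, before the treatments, HT minus CL was 0.02 ± 1.06 (SE) for SLC7A5, 0.84 ± 0.63 for SLC7A8, -0.08 ± 0.46 for IVD and -0.26 ± 0.42 for DBT on the log2 scale. At D3 it was 0.38 ± 0.33, 0.24 ± 1.17, 0.19 ± 0.13 and 0.19 ± 0.21 in the same order. Both treatments held cows of either kind, since the 5 cows with the high milk protein share were 3 CL and 2 HT and the 4 with the SLC7A8 peak were 2 and 2.

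The test with the unadjusted p under 0.05 was SLC7A8 at D7. HT cows ran from 15.1 through a median of 37.6 to 58.8 CPM and CL cows from 8.52 through 17.9 to 43.7 CPM. The groups overlapped, with 5 of 6 HT cows above 5 of 6 CL cows. HT vs. CL was 0.93 ± 0.38 (edgeR p = 0.0282, FDR = 0.959), and the exact permutation test of the mean log2 CPM gave a difference of 0.99 with p = 0.0498 (0.448 adjusted over the 9 comparisons of that gene). Relative to KRT19 the difference was 0.46 (exact permutation p = 0.156).

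At D25 the HT minus CL differences were 0.22 ± 0.20 for SLC7A5, 0.21 ± 0.34 for SLC7A8, -0.09 ± 0.18 for IVD and 0.00 ± 0.18 for DBT (edgeR FDR = 0.997 for the first 3 and 0.999 for DBT). No change of the HT minus CL difference over time was called by the test of all 4 dry time points together, with edgeR FDR = 1 for each of the genes. In the within-cow change from D-3 to D3 the treatments differed by 0.29 for SLC7A5, -0.58 for SLC7A8, 0.27 for IVD and 0.53 for DBT (exact permutation p = 0.870, 0.734, 0.552 and 0.158), and by 0.87 for the ratio of the 2 transporters (p = 0.745, exact permutation). The smallest p was that of DBT, whose change was -0.34 ± 0.63 (SD) in HT and -0.87 ± 0.61 in CL. Over the 42 paired genes of the lists, 210 tests of HT vs. CL gave 0 calls and 5 unadjusted p under 0.05 by edgeR, and 0 and 7 by DESeq2.

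**Figure D5:**
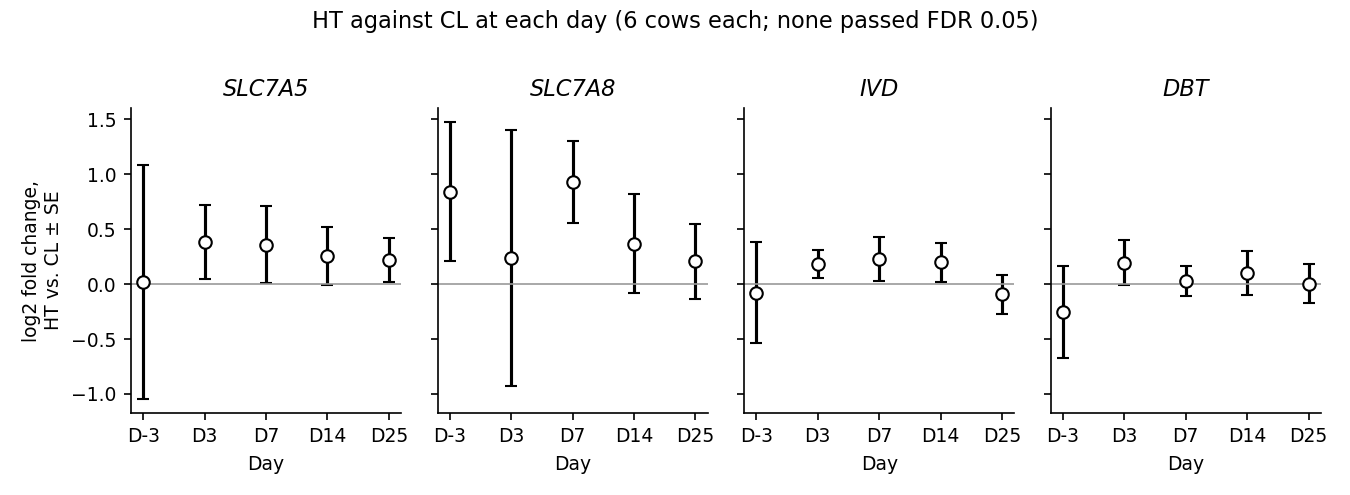
Log2 fold change of HT vs. CL ± SE (edgeR) at each day for the 4 genes, 6 cows a group, with open circles because no FDR was at most 0.05. The errors are widest for SLC7A5 at D-3 (1.06) and SLC7A8 at D3 (1.17), and the SLC7A8 estimate at D7 (0.93) is the one farthest from 0.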

How the data were processed

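Mammary biopsies trimmed of visible fat were taken, and poly(A) RNA was sequenced single-ended on an Illumina NextSeq. The authors trimmed reads with Trim Galore, aligned them with TopHat2 to the bovine genome (bosTau7 in the methods, UMD3.1 in the submitters' processing notes), merged transcripts with Cufflinks and counted uniquely mapped reads with HTSeq. The values deposited are these raw counts per locus, without normalization, and counting by strand is not stated. Symbols were paired through the study's supplementary tables, held in part, for 3033 loci. Values of the authors' own comparisons were not used.

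The filter kept 14714 loci that reached 1 CPM in 6 or more libraries. The time points were compared with edgeR 4.0.16 (TMM, quasi-likelihood F-test, Benjamini-Hochberg FDR, threshold 0.05) over all 60 libraries, and HT with CL within the 12 libraries of a day. The main fit over time had a mean for each day and no term for the cow, so it treated repeated biopsies of a cow as independent. Log2 CPM used a prior count of 2. Sign-flip tests over 12 cows (smallest p 0.000488) and permutation tests of HT and CL (smallest p 0.00216) were two-sided and exact. Cow numbers in the labels were taken to mark the same animal. Deviations from the group mean correlated at a mean of 0.293 over 120 pairs of libraries of 1 cow and -0.0573 over 600 pairs of different cows. These means cover all cows and do not settle the labels of 8513 and 8660. The alternatives were RLE size factors, scaling by library size, TMM without the milk protein genes, other filters, prior counts and dispersions, DESeq2 1.42.0, a fit of only the days compared, the cow as a block, each cow left out, cows 8513 and 8660 left out, and levels relative to KRT19 (KRT8 and KRT18, also planned for that scaling, were not paired). Leaving out the D14 library of cow 7965 was added after the data were seen. The edgeR fits of D3 vs. D-3, with and without the cow as a block, and of HT vs. CL at D3 were tested on simulated counts. Those counts held no differences between cows. The exact tests, the ratios, DESeq2 and the scaling to KRT19 were not tested in this way. Genes named were the 4 genes, at most 8 called genes per list in each of the first 2 steps of the course (D-3 to D3 and D3 to D7), the other branched-chain and system L genes whatever their p, and for each of the 4 genes the 5 loci with a symbol of highest r, of which 1 is not reported here. The genes and lists were chosen with earlier results of these data known.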

Additional observations from a re-analysis of the deposited data

Results flagged for a closer look

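SLC7A5 in HT cow 8513 at D7 stood at 135 CPM, far above the other 5 HT cows of that day, which held 34.8 to 52.7 CPM. The gap took 0.693 of the range of the group, which is above Dixon's critical value for 6 samples. It was 1 of 60 groups tested, where chance alone flags about 1 in 20.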

How the results depend on the processing

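Over 662 alternatives to 35 results, 571 left direction and call, or a count, about as they were, 67 lost a call, 12 gained one, 8 reversed and 4 moved. A call here was an FDR of at most 0.05, or for the exact tests an unadjusted p of at most 0.05. Results that were counts had no direction or call, and the 4 that moved were such counts. With libraries scaled by size alone, which shifts the median of all loci by 0.35 at D3 vs. D-3, IVD at D3 was -0.31 (edgeR FDR = 0.0957) and DBT -0.052 (FDR = 0.797), and against D-3 IVD turned to 0.11 at D7, 0.048 at D14 and 0.23 at D25 and DBT to 0.15, 0.10 and 0.21. The median of all loci was shifted by 0.41, 0.43 and 0.48 at those time points. Relative to it IVD was at -0.29, -0.38 and -0.25 and DBT at -0.26, -0.33 and -0.28. Under that scaling by size the within-cow change of DBT was -0.038 at D3 (exact p = 0.742) and 0.24 at D25, and relative to KRT19 it was 0.24 at D25. A fit of only the days compared gave 2.29 for SLC7A8 (FDR = 0.0589) and -0.75 for DBT (FDR = 0.0590) at D3. With each cow left out in turn, SLC7A8 at D7 vs. D3 ran from -2.75 to -2.02, the change of the transporter ratio at D3 from -3.22 to -1.98 and that of the IVD to DBT ratio from -0.31 to -0.20. Without cows 8513 and 8660 the within-cow changes at D3 were -1.88 for SLC7A5 (exact p = 0.0469), 1.82 for SLC7A8 (exact p = 0.0488), -3.69 for the transporter ratio (exact p = 0.0215) and -0.24 for the IVD to DBT ratio (exact p = 0.109). HT minus CL for SLC7A8 at D7 was 0.85 with library size alone (exact p = 0.0628), 0.99 with TMM without the milk protein genes (exact p = 0.0519) and 0.46 relative to KRT19 (exact p = 0.156). With the cow as a replicate block SLC7A8 was 1.81 at D3 vs. D-3 (edgeR FDR = 0.0200) and -1.95 at D7 vs. D3 (FDR = 0.0296). In the same fit D3 vs. D-3 was -2.27 for SLC7A5 (edgeR FDR = 0.000608), -1.03 for IVD (FDR = 0.000608) and -0.71 for DBT (FDR = 0.00161), where 21.5% of loci were called. The causes of these shifts were not tested.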
